A study of Mus musculus with 20 samples.

Results

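Methylation at the cytochrome P450 genes was measured in 20 mouse liver libraries by reduced representation bisulfite sequencing (RRBS), a method that cuts DNA with MspI and reads methylated and unmethylated cytosines in the CpG-rich fragments. Members were the autosomal protein-coding genes whose symbol in the mm10 annotation is Cyp followed by a digit, without the bile acid and cholesterol synthesis genes Cyp7a1, Cyp7b1, Cyp8b1, Cyp27a1 and Cyp51. A locus ran from 5 kb upstream of the gene start to the gene end. It was kept where at least 3 of its CpGs had at least 10 reads in at least 3 libraries of each of the 4 groups. Of 95 such genes, 52 were kept, against 16460 of the 20807 autosomal protein-coding genes of the whole series, and they held 1208 of 906622 qualifying CpGs. The number of CpGs per locus had a median of 14, and 32 loci held 10 or more. Cyp26a1 held the most (139), followed by Cyp26b1 (133) and Cyp46a1 (108).

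Cytochrome P450 enzymes are haem proteins that insert oxygen into fat-soluble molecules, with electrons supplied by P450 oxidoreductase in the endoplasmic reticulum or by ferredoxin in mitochondria. Members of the CYP1, CYP2 and CYP3 families clear drugs and other foreign compounds, CYP4 enzymes hydroxylate fatty acids, and CYP26, CYP24 and the steroidogenic enzymes act on retinoic acid, vitamin D and steroid hormones. The liver is the main site of P450 metabolism, and around birth and weaning several isoforms replace one another in the hepatocyte.

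The libraries came from livers of male wild-type C57BL/6J offspring. AME-d21 and AME-d0 mice were exposed to an adverse maternal environment (AME), in which dams ate a Western diet from 5 weeks before mating through lactation and were stressed in late gestation. Con-d21 and Con-d0 mice had dams on a control diet without the stress. Day 0 (d0) pups were delivered by Cesarean section, day 21 (d21) pups were born naturally, came from litters culled to 6 and were fasted for 5 h, and each group had 5 mice from 5 litters. Age, delivery, nursing and fasting therefore cannot be told apart in the age comparisons. The whole liver was used, so a change within cells and a change in the mix of cells cannot be told apart either.

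Each library held 23248139 to 45769589 reads over CpGs. Methylation over all autosomal CpG reads was 38.9 to 41.0% in AME-d21, 39.9 to 41.6% in Con-d21, 34.5 to 36.6% in AME-d0 replicates 2, 4 and 5, and 34.5 to 37.9% in Con-d0 livers. AME-d0 replicates 1 and 3 stood apart at 30.1% and 29.3%. AME-d21 replicate 4 went against its male label: it held 2.88 X-chromosome reads per 100 autosomal reads and 329.3 Y-chromosome reads per 1000000 reads, against 1.53 to 1.55 and 1279.8 to 1513.3 in the other AME-d21 libraries. Counts of calls in the age comparison of AME offspring are given with and without these libraries below.

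Methylation was summed at 3 scales: the whole locus, windows of 200 bp (bins), and promoters within 1 kb of a gene start. The sequences that follow include the 4 bins with the greatest gain and the 4 with the greatest loss of methylation in an age comparison. These were taken from the called P450 bins whose groups did not overlap, with 1 bin per gene in each direction of a comparison. The coding bin of Cyp26c1 without untranslated sequence that held the most single-CpG changes was added after its values were seen. Each sequence is printed 5′ to 3′ on the strand of its gene from the GRCm38 reference, with the CpGs that were measured in capitals.
Cyp1a1 chr9:57697001-57697200, at -420 bp from the start of transcript Cyp1a1-201: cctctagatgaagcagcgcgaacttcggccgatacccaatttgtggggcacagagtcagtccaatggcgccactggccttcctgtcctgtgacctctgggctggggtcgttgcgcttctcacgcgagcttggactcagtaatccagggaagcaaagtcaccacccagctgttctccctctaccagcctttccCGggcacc
Cyp1a1 chr9:57697401-57697600, at -151 bp from the start of Cyp1a1-201: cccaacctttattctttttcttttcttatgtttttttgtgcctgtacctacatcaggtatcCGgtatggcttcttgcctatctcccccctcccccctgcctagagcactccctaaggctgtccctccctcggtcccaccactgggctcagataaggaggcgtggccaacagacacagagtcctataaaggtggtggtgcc
Cyp21a1 chr17:34806401-34806600, upstream of the gene: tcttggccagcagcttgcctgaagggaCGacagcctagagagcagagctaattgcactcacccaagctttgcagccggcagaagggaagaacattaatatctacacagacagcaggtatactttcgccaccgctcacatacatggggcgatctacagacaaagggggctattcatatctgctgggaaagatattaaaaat
Cyp26c1 chr19:37687401-37687600, intron: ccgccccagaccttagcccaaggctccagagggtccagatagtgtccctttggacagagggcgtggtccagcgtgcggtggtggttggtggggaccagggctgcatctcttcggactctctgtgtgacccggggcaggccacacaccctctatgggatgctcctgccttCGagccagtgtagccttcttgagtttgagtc
Cyp26c1 chr19:37693001-37693200, coding exon: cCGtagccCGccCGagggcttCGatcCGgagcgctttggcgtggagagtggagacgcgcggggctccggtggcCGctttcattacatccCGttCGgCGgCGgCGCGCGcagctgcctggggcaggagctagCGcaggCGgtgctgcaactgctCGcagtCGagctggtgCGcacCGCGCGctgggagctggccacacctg
Cyp26b1 chr6:84574401-84574600, coding exon: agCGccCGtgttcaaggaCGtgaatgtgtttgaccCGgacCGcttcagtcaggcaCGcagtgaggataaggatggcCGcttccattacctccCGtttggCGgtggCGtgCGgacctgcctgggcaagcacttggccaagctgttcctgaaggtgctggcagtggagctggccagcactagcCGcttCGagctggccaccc
Cyp2r1 chr7:114563201-114563400, at -246 bp from the gene start: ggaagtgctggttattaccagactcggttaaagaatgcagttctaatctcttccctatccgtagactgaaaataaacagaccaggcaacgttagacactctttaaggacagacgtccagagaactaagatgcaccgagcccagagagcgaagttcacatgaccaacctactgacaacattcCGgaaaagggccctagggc
Cyp3a25 chr5:146005601-146005800, intron: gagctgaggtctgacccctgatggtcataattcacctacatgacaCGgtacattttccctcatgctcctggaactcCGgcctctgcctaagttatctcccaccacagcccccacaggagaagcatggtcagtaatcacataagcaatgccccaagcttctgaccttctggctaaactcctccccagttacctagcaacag
Cyp2j6 chr4:96553201-96553400, coding exon: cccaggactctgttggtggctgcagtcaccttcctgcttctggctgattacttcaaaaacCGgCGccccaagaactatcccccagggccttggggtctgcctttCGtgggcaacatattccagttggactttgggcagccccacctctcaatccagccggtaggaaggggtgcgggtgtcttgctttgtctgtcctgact

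The sequences differ in how much of their CpG content RRBS read. Both Cyp1a1 bins, the Cyp21a1 bin, the Cyp26c1 intron bin and the Cyp2r1 bin rested on 1 measured CpG each, whereas all 13 CpGs of the Cyp26b1 bin and 21 of the 27 CpGs of the Cyp26c1 exon bin were measured. The letters GCGTG, the core of the element that the aryl hydrocarbon receptor binds, or their reverse complement occurred once in each Cyp1a1 bin and in the Cyp26c1 exon bin, at 2 places in the Cyp26c1 intron bin and in the Cyp26b1 bin, and in none of the other 4. They occurred in 44730 of the 230208 autosomal bins with a measured CpG (19.4%) and in 61 of the 277 P450 bins (22.0%).

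The level of methylation differed widely among the P450 loci before any comparison. In Con-d0 livers, 7 loci were below 10% (Cyp4f37, Cyp26a1, Cyp24a1, Cyp1b1, Cyp39a1, Cyp4v3 and Cyp2r1), 15 were between 10 and 50%, and 30 were at 50% or more. Cyp26a1, with the most CpGs, was at 2.502% ± 0.521 (SD, n = 5). Cyp2f2, read at 4 CpGs, was at 88.4% ± 6.51 (SD, n = 5).

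**Figure D1:**
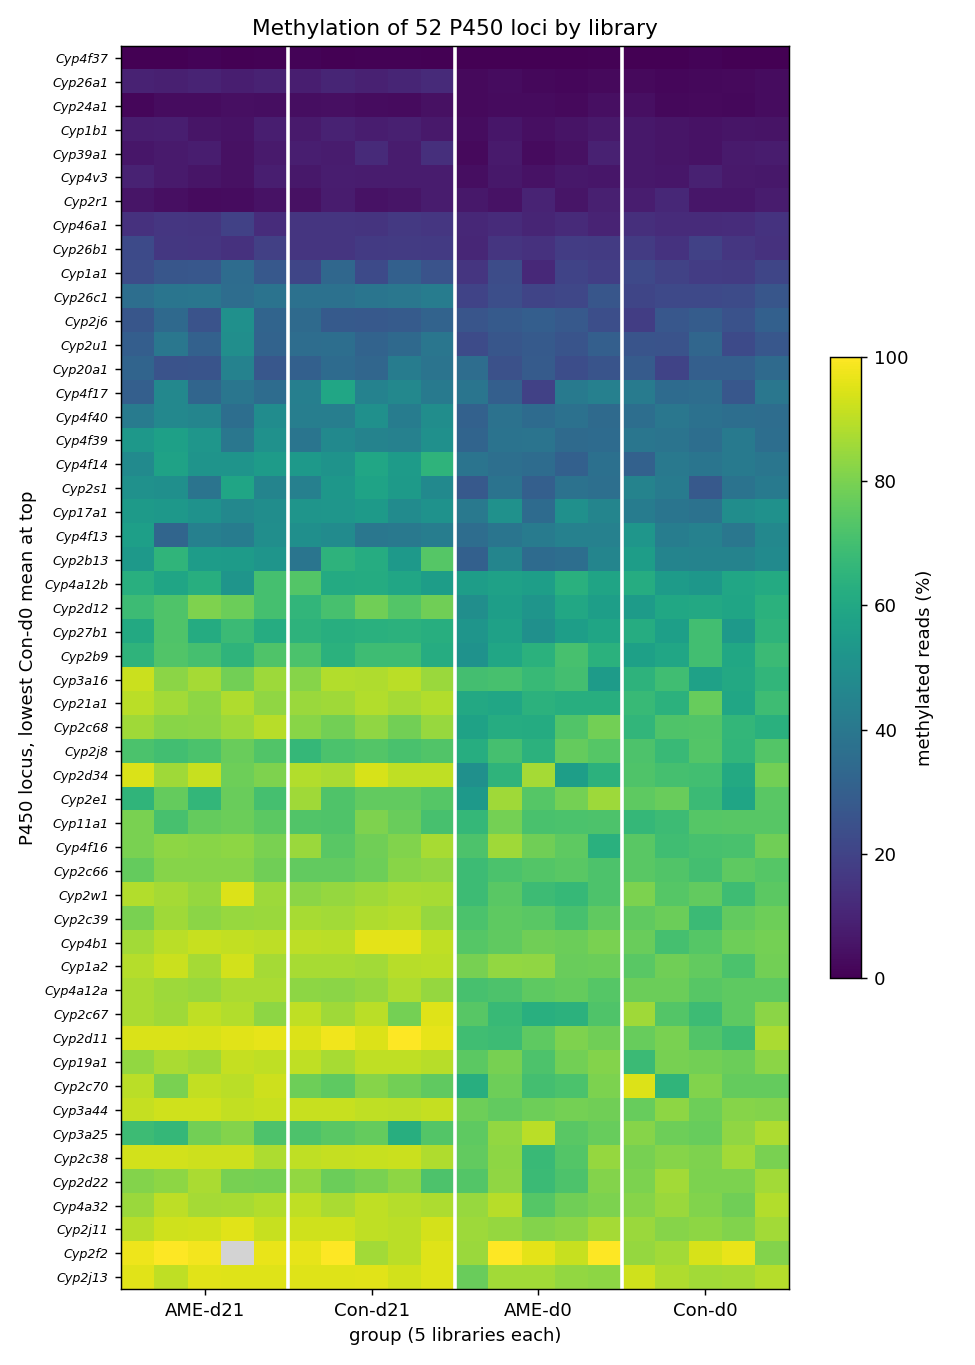
Methylation in percent (colour) of the 52 P450 loci (down the page, ordered by the Con-d0 mean) in the 20 libraries (across, by group). The loci span levels from near 0 to above 90%, and most have a higher level in the d21 than in the d0 libraries; grey is Cyp2f2 in AME-d21 replicate 4, which had no read there.

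Most P450 loci were more methylated at d21 than at d0, in offspring of both kinds of dam. The difference in level had a median of 8.38 percentage points over the 52 loci in AME offspring (range -6.5 to 24.3) and of 7.32 points in control offspring (range -9.8 to 23.1), against medians of 3.74 and 2.083 points over all 16460 loci. These medians are not matched for level. In Con-d0 livers 30 of the 52 P450 loci were at 50% or more, and the median level over all loci was 23.4%. Bins of like level are compared below for control offspring. The difference was above 0 for 48 P450 loci in AME and for 47 in control offspring. In limma with Benjamini-Hochberg adjustment over all loci, 31 of the 52 passed an adjusted p of 0.05 in AME offspring, 30 of them higher at d21, where 39.5% of all loci were called (37.1% higher, 2.38% lower). In control offspring 34 passed, 33 of them higher, where 36.4% of all loci were called (32.5% higher, 3.96% lower). The groups did not overlap, with every d21 library above every d0 library, at 25 loci in AME offspring (27.3% of all loci) and at 23 loci in control offspring (24.4% of all loci). Without AME-d21 replicate 4 the count of loci without overlap in AME offspring was 26 (32.0% of all loci), and without AME-d0 replicates 1 and 3 it was 26 higher and 1 lower (28.7% and 2.90% of all loci). The count of called loci in AME offspring was 30 without AME-d21 replicate 4 and 25 without AME-d0 replicates 1 and 3. These counts rest on fewer libraries, so the shares of all loci called above do not apply to them. The first omission lost the call of Cyp2u1. The second lost those of Cyp1a1, Cyp27b1, Cyp2r1, Cyp2s1, Cyp2u1, Cyp46a1 and Cyp4f40 and added a call of Cyp2e1.

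The genome as a whole gained methylation between the ages, so the same loci were also read against that shift. The median change over all loci on the log2 scale of methylated to unmethylated reads was 0.44 in AME and 0.28 in control offspring, and that of the P450 loci 0.74 and 0.61. Relative to the median of all loci, 21 P450 loci were called in AME offspring (20 higher, 1 lower, with 14.6% of all loci higher and 5.21% lower) and 20 in control offspring (19 higher, 1 lower, with 19.3% and 7.06% of all loci). The count in AME offspring was 21 without AME-d21 replicate 4 and 18 without AME-d0 replicates 1 and 3, to which the shares above do not apply. The calls that centring ended were those of Cyp1a1, Cyp1a2, Cyp27b1, Cyp2c66, Cyp2d34, Cyp2s1, Cyp2u1, Cyp46a1, Cyp4f39 and Cyp4f40 in AME offspring (limma adjusted p from 0.08966 to 0.68). In control offspring they were those of Cyp17a1, Cyp1a1, Cyp1b1, Cyp2c66, Cyp2c67, Cyp2s1, Cyp2u1, Cyp39a1, Cyp46a1, Cyp4a32, Cyp4f16, Cyp4f17, Cyp4f39 and Cyp4f40 (limma adjusted p from 0.07696 to 0.4586). When each CpG needed 20 reads, 38 loci were left to test and 20 were called in control offspring. The share of all loci called under that minimum is not given here.

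**Figure D2:**
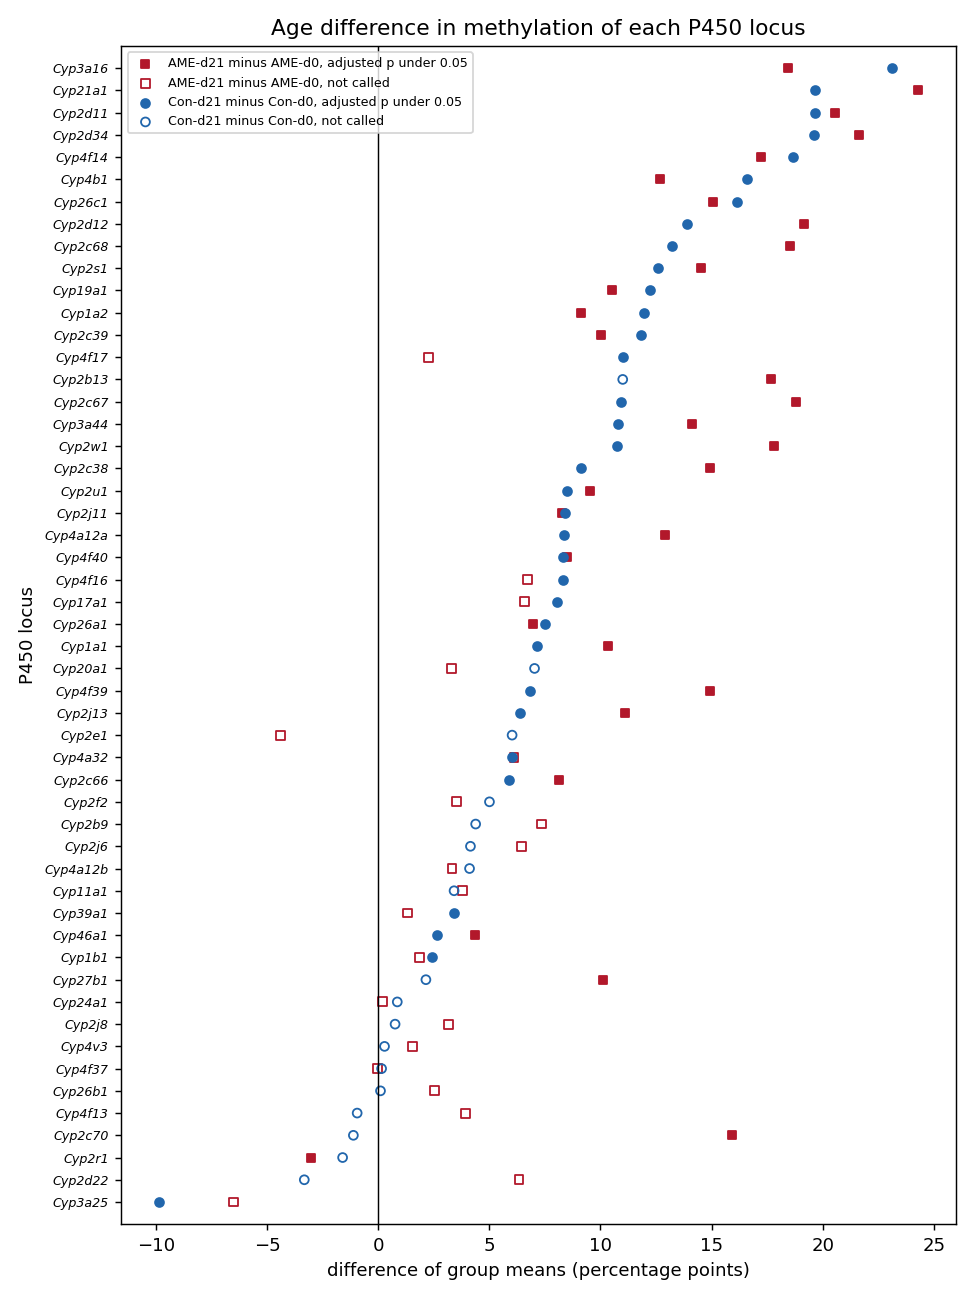
Difference in locus methylation between d21 and d0 livers, in percentage points (x axis), for the 52 P450 loci (y axis) in AME offspring (squares) and control offspring (circles); filled symbols have an adjusted p under 0.05 in limma. Most symbols lie to the right of 0, with Cyp3a16 and Cyp21a1 farthest, and Cyp3a25 lies farthest to the left.

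All 3 CYP1 genes, which oxidise polycyclic aromatic compounds and are induced through the aryl hydrocarbon receptor, were higher at d21 in control offspring, and 2 of the 3 in AME offspring. As a share of all loci, 32.5% were called higher in control and 37.1% in AME offspring. Cyp1a1 (24 CpGs, chr9:57687928-57703824) was at 23.4, 26.7, 27.2, 35.5 and 27.7% in AME-d21 and at 15.5, 23.4, 11.5, 20.1 and 18.4% in AME-d0 livers. It was at 21.04, 33.4, 22.6, 30.5 and 25.6% in Con-d21 and at 22.1, 19.5, 17.7, 17.2 and 20.97% in Con-d0 livers. The ages overlapped in both comparisons, and both were called (10.3 points, adjusted p = 0.0124 in AME, 7.14 points, adjusted p = 0.0317 in control offspring, limma). Cyp1a2, which oxidises caffeine, averaged 89.4% ± 3.09 in AME-d21 and 80.3% ± 3.19 in AME-d0 livers, and 87.8% ± 1.51 in Con-d21 and 75.8% ± 2.89 in Con-d0 livers (SD, n = 5 each, limma adjusted p = 0.00442 and 0.000116). Cyp1b1, with the most CpGs of the group (73), stayed below 10% in every library and was called in control offspring, at 8.04% ± 1.08 in Con-d21 and 5.61% ± 0.587 in Con-d0 livers (SD, n = 5 each, limma adjusted p = 0.00729).

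The greatest differences at Cyp1a1 lay near the start of transcript Cyp1a1-201. The CpG of the bin at -420 bp (11 to 27 reads per library) was at 25.0, 33.3, 57.9, 42.9 and 43.8% in AME-d21 and at 0, 0, 4.54, 4.17 and 3.85% in AME-d0 livers. In control offspring it was at 19.1, 26.1, 40.7, 35.3 and 23.5% in Con-d21 and at 0, 0, 9.09, 27.3 and 14.3% in Con-d0 livers. The ages did not overlap in AME offspring and overlapped in control offspring, and the bin was called in both (38.1 points, log2 3.34 ± 0.35 (SE), adjusted p = 9.257e-06 in AME, 18.8 points, adjusted p = 0.016 in control offspring, limma). The CpG of the bin at -151 bp (9 to 32 reads) was at 54.5, 48.3, 56.2, 56.5 and 60% in Con-d21 and at 17.6, 19.1, 30, 7.69 and 12.5% in Con-d0 livers, with no overlap (37.7 points, log2 2.35 ± 0.35 (SE), adjusted p = 0.00019, limma). It averaged 61.9% in AME-d21 and 13.2% in AME-d0 livers but had under 10 reads in a library there and was not tested. The exon bin at chr9:57702401, with 3 CpGs, averaged 86.6% in AME-d21, 89.98% in Con-d21, 68.7% in AME-d0 and 68.4% in Con-d0 livers.

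**Figure D3:**
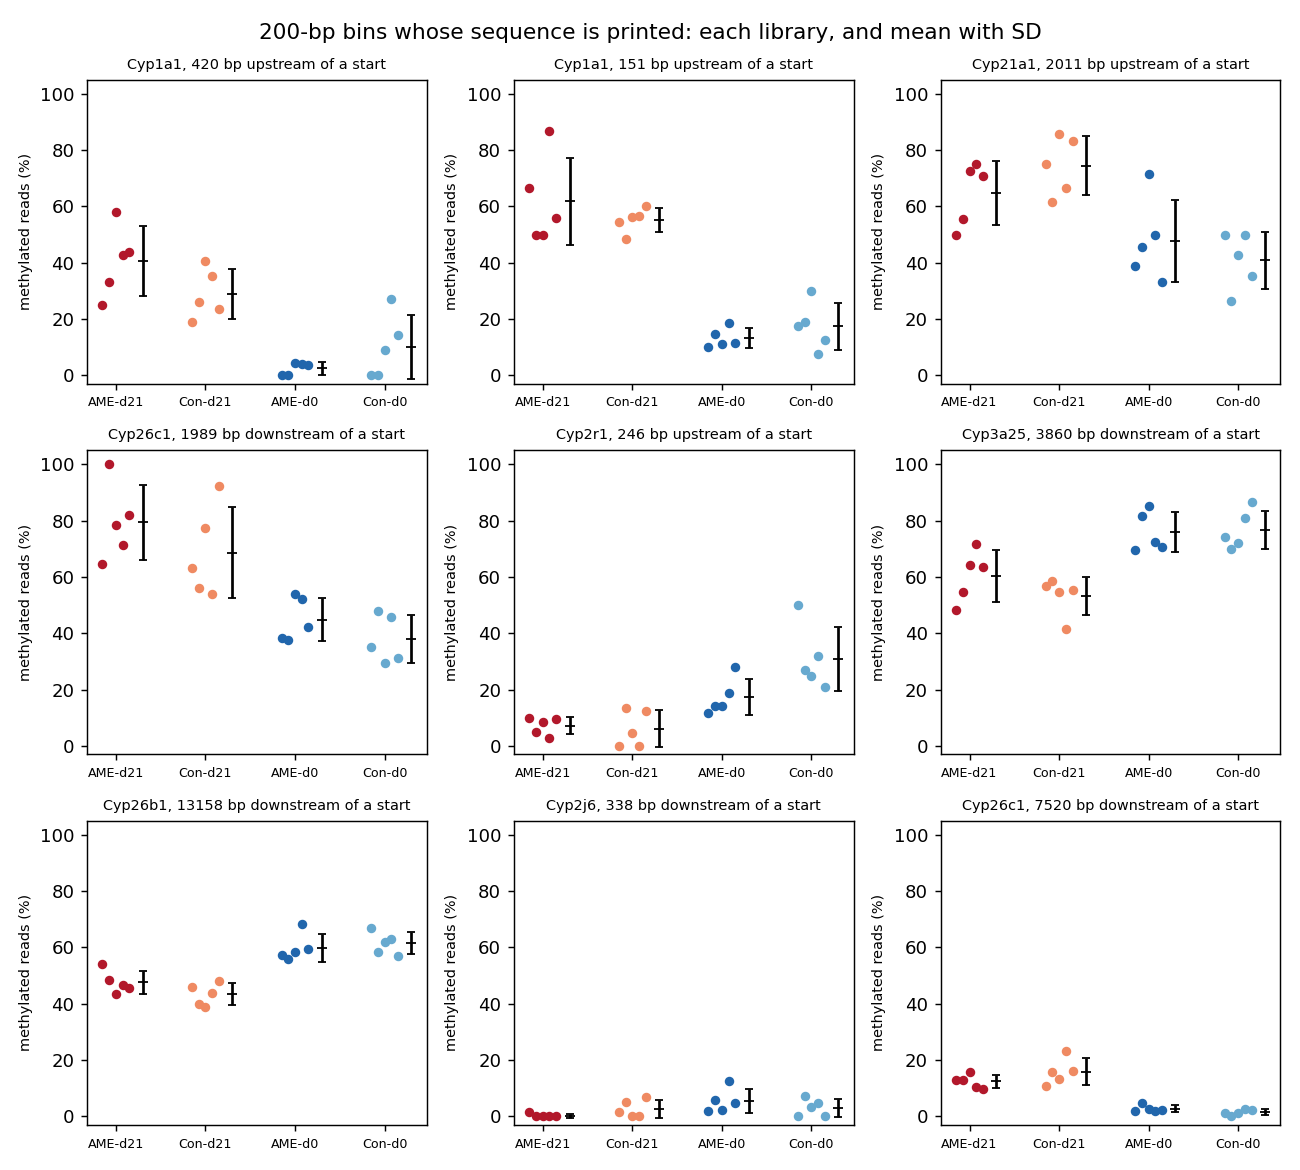
Methylation in percent (y axis) of the 9 bins whose sequence is printed, 1 panel each, by group (x axis: AME-d21, Con-d21, AME-d0, Con-d0); points are libraries, and bars are the mean ± SD. Both Cyp1a1 bins are higher in d21 livers, the Cyp26b1, Cyp2r1 and Cyp3a25 bins are lower there, and the Cyp2j6 bin stays near 0.

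The 3 retinoic acid hydroxylase genes, which clear retinoic acid, split. Cyp26a1 (139 CpGs, chr19:37697798-37701536) was at 9.74, 8.92, 10.1, 8.56 and 9.74% in AME-d21 and at 2.54, 3.22, 2.26, 1.89 and 2.44% in AME-d0 livers. It was at 8.28, 10.52, 9.04, 10.3 and 11.9% in Con-d21 and at 2.66, 1.95, 2.18, 2.42 and 3.30% in Con-d0 livers. No d21 library overlapped a d0 library (6.95 points, log2 2.05 ± 0.16 (SE), adjusted p = 6.97e-06 in AME, 7.51 points, log2 2.12 ± 0.17 (SE), adjusted p = 7.046e-06 in control offspring, limma). Its neighbour Cyp26c1 (85 CpGs, chr19:37685581-37693398) averaged 37.6% ± 1.59 in AME-d21 and 22.5% ± 2.81 in AME-d0 livers, and 39.0% ± 1.90 in Con-d21 and 22.9% ± 2.22 in Con-d0 livers (SD, n = 5 each), again without overlap (limma adjusted p = 0.000259 and 4.793e-05). Cyp26b1 (133 CpGs, chr6:84571414-84593908) averaged 17.6% ± 3.23 in AME-d21 and 15.1% ± 2.85 in AME-d0 livers, and 16.5% ± 0.887 in Con-d21 and 16.4% ± 2.10 in Con-d0 livers (SD, n = 5 each), and was not called (limma adjusted p = 0.313 and 0.924).

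Cyp26a1 and Cyp26c1 lie next to each other and their loci shared 42 CpGs, since the 5 kb upstream of Cyp26a1 reach into the last exon of Cyp26c1. On the CpGs it did not share, Cyp26a1 was still 4.001 points higher in AME and 4.026 points higher in control offspring at d21 (limma adjusted p = 1.742e-05 and 0.0001394). The shared stretch held the densest run of single-CpG changes among the P450 genes. There, a differentially methylated CpG (DMC) was one with at least 10 reads in all 10 libraries, a quasi-binomial p under 0.001 and a difference of at least 10 points. Between chr19 positions 37692869 and 37693348, 15 DMCs were higher in Con-d21 than in Con-d0 livers, by 13.5 to 44.9 points, and 5 were higher in AME-d21 than in AME-d0 livers, by 16.1 to 51.1 points. Of these, the coding bin whose sequence is printed held 6 in control and 0 in AME offspring, and the next bin downstream held 7 and 4. Runs of these DMCs had the same lowest and highest reads per library, such as 33 and 72 in control offspring. CpGs read together in this way are not independent changes.

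The coding bin chr19:37693001-37693200 (21 CpGs, 398 to 898 reads) was at 13.1, 12.98, 15.9, 10.4 and 9.84% in AME-d21 and at 1.99, 4.85, 2.79, 1.94 and 2.24% in AME-d0 livers. It was at 10.7, 15.8, 13.3, 23.3 and 16.3% in Con-d21 and at 1.38, 0.185, 1.12, 2.77 and 2.45% in Con-d0 livers. Every d21 library was above every d0 library (9.67 points, log2 2.34 ± 0.32 (SE), adjusted p = 7.442e-05 in AME, 14.3 points, log2 3.71 ± 0.48 (SE), adjusted p = 7.998e-05 in control offspring, limma). The next bin downstream was at 25.9% in AME-d21, 26.8% in Con-d21, 6.51% in AME-d0 and 7.27% in Con-d0 livers. In an intron of Cyp26c1, the bin at chr19:37687401, with 1 CpG, averaged 68.6% ± 16.1 in Con-d21 and 37.9% ± 8.48 in Con-d0 livers (SD, n = 5 each, 30.7 points, limma adjusted p = 0.00629), a call that was lost after centring on all bins.

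Within the Cyp26b1 locus, bins were called in both directions. The coding bin chr6:84574401-84574600 (13 CpGs, 394 to 701 reads) was at 45.8, 40, 38.9, 43.7 and 48.2% in Con-d21 and at 67, 58.5, 61.8, 63.1 and 57% in Con-d0 livers, with no overlap (fell by 18.1 points, limma adjusted p = 0.00507). It was at 54.3, 48.3, 43.5, 46.6 and 45.6% in AME-d21 and at 57.4, 55.8, 58.5, 68.3 and 59.5% in AME-d0 livers. These did not overlap either (fell by 12.3 points, limma adjusted p = 0.0445), but the call in AME offspring was lost when any single library other than AME-d21 replicate 1 or AME-d0 replicate 2 was left out (adjusted p from 0.0556 to 0.113, and 0.0797 without both AME-d0 replicates 1 and 3, limma). Farther along the gene, the bin at chr6:84572201, with 4 CpGs, averaged 69.9% ± 3.88 in AME-d21 and 45.2% ± 3.78 in AME-d0 livers (SD, n = 5 each, 24.7 points, limma adjusted p = 0.000636), and its call was lost after centring (limma adjusted p = 0.0801). Among single CpGs of Cyp26b1 in control offspring, 1 was higher and 3 were lower at d21.

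**Figure D4:**
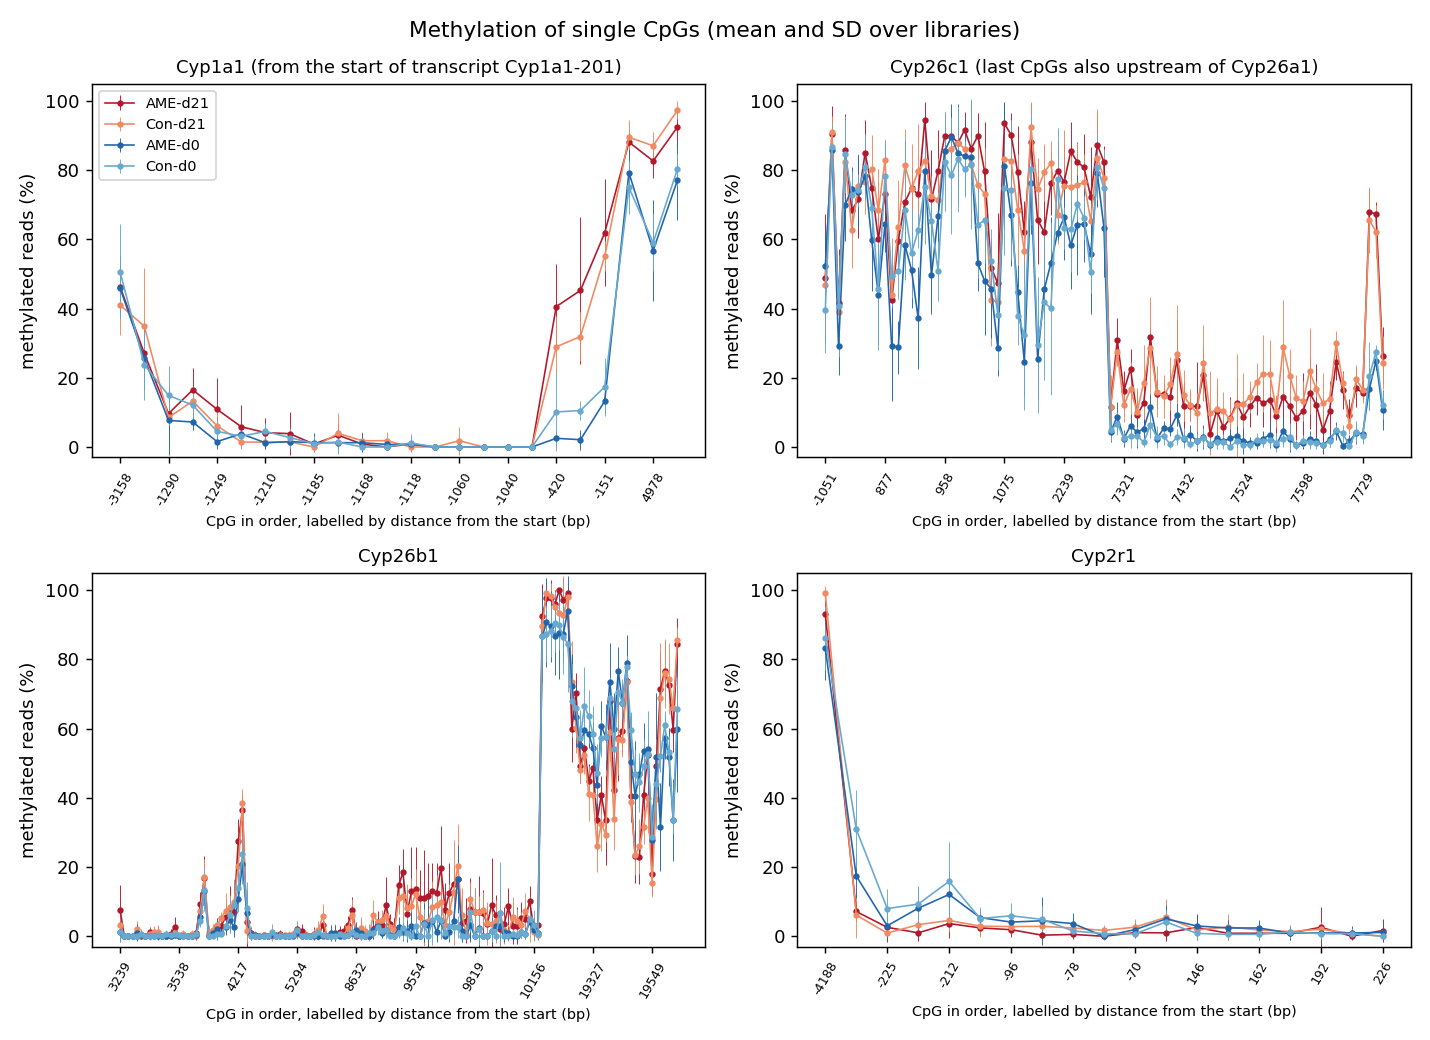
Methylation in percent (y axis, mean ± SD of the libraries with at least 5 reads) of single CpGs in order along 4 genes (x axis: distance in bp from the start of Cyp1a1-201, or from the outermost gene start of Cyp26c1, Cyp26b1 and Cyp2r1) in the 4 groups. At the 3′ end of Cyp26c1 the d21 means lie above the d0 means, and in the coding exon of Cyp26b1 they lie below.

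The CYP2C genes, whose enzymes oxidise drugs and arachidonic acid, were called higher at d21 in 6 of 6 measured members in AME and in 5 of 6 in control offspring. The shares of all loci were 37.1% and 32.5%. Cyp2c66 held the most CpGs of the group (62) and averaged 80.1% ± 2.45 in AME-d21 and 72.0% ± 2.19 in AME-d0 livers, and 79.1% ± 3.48 in Con-d21 and 73.2% ± 1.92 in Con-d0 livers (SD, n = 5 each, limma adjusted p = 0.00617 and 0.0314). Cyp2c67 averaged 87.0% ± 2.81 in AME-d21 and 68.2% ± 4.85 in AME-d0 livers (SD, n = 5 each, limma adjusted p = 0.000156), with no overlap. Cyp2c68 was read at 3 CpGs and averaged 85.1% ± 2.77 in AME-d21 and 66.6% ± 8.92 in AME-d0 livers (SD, n = 5 each, limma adjusted p = 0.0015). The member without a call in control offspring was Cyp2c70, which makes muricholic bile acids in mice and was at 77.7% ± 2.68 in Con-d21 and 78.9% ± 10.52 in Con-d0 livers (SD, n = 5 each, limma adjusted p = 0.769).

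The CYP2D enzymes metabolise many amine drugs. Of the 4 measured genes, 3 were called higher in each comparison, beside 37.1% of all loci in AME and 32.5% in control offspring. Cyp2d11 (3 CpGs) was at 94.4, 94.5, 93.8, 95.5 and 96.4% in AME-d21 and at 69.3, 68.6, 75.0, 80.7 and 78.3% in AME-d0 livers. It was at 94.7, 97.9, 94.9, 100 and 96.2% in Con-d21 and at 76.7, 80.0, 72.9, 68.8 and 87.2% in Con-d0 livers. The ages did not overlap (20.6 points, adjusted p = 1.196e-05 in AME, 19.6 points, adjusted p = 0.000414 in control offspring, limma). Cyp2d34 and Cyp2d12 gained 21.6 and 19.1 points in AME and 19.6 and 13.9 points in control offspring, and the call of Cyp2d34 in AME offspring was lost after centring (limma adjusted p = 0.0967). Cyp2d22, with the most CpGs of the group (7), was not called (limma adjusted p = 0.128 and 0.298), and 1 of its CpGs, at chr15 position 82374526, was a DMC that fell to 49.3% in Con-d21, against 87.8% in Con-d0 livers.

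In the group of CYP2A, 2B, 2F, 2G, 2S and 2T genes, 4 of 14 were measured. Of these, 2 were higher at d21 in AME and 1 in control offspring, beside 37.1% and 32.5% of all loci. Cyp2s1 (14 CpGs) averaged 48.6% ± 7.43 in AME-d21 and 34.1% ± 4.68 in AME-d0 livers, and 51.2% ± 5.78 in Con-d21 and 38.6% ± 6.42 in Con-d0 livers (SD, n = 5 each, limma adjusted p = 0.0103 and 0.0197), and its call in control offspring was lost with the replicate number as a block and after centring. Cyp2b13, a form that is more abundant in female than in male mouse liver, averaged 56.3% ± 5.19 in AME-d21 and 38.7% ± 6.64 in AME-d0 livers (SD, n = 5 each, limma adjusted p = 0.00338). In control offspring it was at 58.6% ± 13.1 in Con-d21 and 47.6% ± 4.64 in Con-d0 livers (SD, n = 5 each) and was not called. For Cyp2f2, which activates naphthalene in the lung, AME-d21 replicate 4 had no read and was left out of the fit, and no call was made (limma adjusted p = 0.218 and 0.423).

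Among the CYP2E, 2J, 2U and 2W genes, 4 of 7 measured members were called higher at d21 in each comparison, namely Cyp2j11, Cyp2j13, Cyp2u1 and Cyp2w1. The share of all loci called higher was 37.1% in AME and 32.5% in control offspring. Cyp2w1 averaged 87.9% ± 4.18 in AME-d21 and 70.1% ± 3.03 in AME-d0 livers, and 85.4% ± 2.05 in Con-d21 and 74.7% ± 4.13 in Con-d0 livers (SD, n = 5 each, limma adjusted p = 0.000801 and 0.00116). Of its 14 CpGs, 10 were shared with the neighbour Cox19, so the change is not particular to Cyp2w1. Cyp2e1, the ethanol-oxidising form, was at 65.6, 76.4, 66.1, 77.2 and 70.4% in AME-d21 and at 54.0, 85.9, 73.6, 79.0 and 85.2% in AME-d0 livers. It was at 85.7, 72.5, 76.0, 76.0 and 73.5% in Con-d21 and at 75.0, 77.1, 68.2, 58.9 and 74.5% in Con-d0 livers. The ages overlapped and no call was made at its 3 CpGs (limma adjusted p = 0.409 and 0.231). AME-d21 replicate 4 stood above its group at Cyp2j6, with 50.3% against 25.5 to 34.2% in the other AME-d21 livers, and at Cyp2u1, with 49.4% against 29.7 to 39.5%. Without it, the call of Cyp2u1 in AME offspring (adjusted p = 0.0485) was lost (adjusted p = 0.0782, limma).

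The 3 measured CYP3A genes, which make up the major drug-metabolising family, moved in both directions. Cyp3a16, a form of the fetal and newborn mouse liver (6 CpGs, chr5:145436309-145469723), was at 92.0, 82.7, 86.7, 78.9 and 85.4% in AME-d21 and at 70.3, 70.9, 67.5, 70.0 and 54.8% in AME-d0 livers. It was at 81.9, 88.4, 88.2, 89.6 and 85.0% in Con-d21 and at 64.8, 69.3, 57.3, 60.2 and 65.9% in Con-d0 livers. The ages did not overlap (18.4 points, log2 1.49 ± 0.27 (SE), adjusted p = 0.00115 in AME, 23.1 points, log2 1.85 ± 0.20 (SE), adjusted p = 4.977e-05 in control offspring, limma). Cyp3a44, with 38 CpGs, averaged 91.9% ± 0.909 in AME-d21 and 77.8% ± 1.15 in AME-d0 livers, and 91.0% ± 0.688 in Con-d21 and 80.2% ± 2.63 in Con-d0 livers (SD, n = 5 each, limma adjusted p = 8.151e-06 and 3.745e-05).

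Cyp3a25, a form of the adult liver (4 CpGs, chr5:145977194-146009618), was the only P450 locus called lower in control offspring. It was at 71.9, 74.4, 76.3, 62.5 and 73.3% in Con-d21 and at 81.8, 77.8, 76.8, 83.3 and 87.9% in Con-d0 livers, with no overlap (fell by 9.84 points, log2 -0.79 ± 0.23 (SE), limma adjusted p = 0.0206). In AME offspring it was at 68.4, 66.7, 78.6, 81.6 and 72.2% in AME-d21 and at 75.4, 84.0, 89.7, 74.4 and 76.6% in AME-d0 livers, which overlapped (limma adjusted p = 0.183). Its intron bin at chr5:146005601, with 2 CpGs, was lower at d21 in both comparisons (fell by 15.4 points, adjusted p = 0.0285 in AME, and fell by 23.4 points, adjusted p = 0.00264 in control offspring, limma). That bin has 38 near copies elsewhere in the genome, at 90% identity over at least 150 bp, and the Cyp3a16 bin at chr5:145443601 has 110, so the values of both are uncertain.

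Of the 12 measured CYP4 genes, 5 were called higher at d21 in AME and 8 in control offspring, beside 37.1% and 32.5% of all loci. Cyp4f14, which hydroxylates leukotriene B4 in mice (15 CpGs), was at 48.0, 57.4, 51.9, 51.8 and 55.0% in AME-d21 and at 38.5, 36.6, 35.4, 30.7 and 36.8% in AME-d0 livers. It was at 53.9, 51.6, 59.3, 55.1 and 64.8% in Con-d21 and at 31.1, 40.5, 38.9, 41.3 and 39.4% in Con-d0 livers. The ages did not overlap (17.2 points, adjusted p = 0.000436 in AME, 18.7 points, adjusted p = 0.000645 in control offspring, limma). Cyp4b1 averaged 89.6% ± 2.08 in AME-d21 and 76.9% ± 2.47 in AME-d0 livers, and 92.3% ± 3.23 in Con-d21 and 75.7% ± 3.54 in Con-d0 livers (SD, n = 5 each, limma adjusted p = 0.000161 and 0.000417). Cyp4v3, with the most CpGs of the group (29), was at 7.08% ± 2.11 in AME-d21, 7.39% ± 0.662 in Con-d21, 5.53% ± 1.14 in AME-d0 and 7.10% ± 1.30 in Con-d0 livers (SD, n = 5 each) and was not called. Its bin at -272 bp from the gene start was called lower in control offspring, by a difference of -1.05 points between levels near 0 (limma adjusted p = 0.00441).

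Among the 4 measured genes of steroid hormone synthesis, 2 were called higher at d21 in AME and 3 in control offspring. Beside them, 37.1% and 32.5% of all loci were called higher. Cyp21a1, the steroid hydroxylase of the adrenal cortex (7 CpGs, chr17:34801348-34804561), was at 89.8, 86.1, 82.9, 88.1 and 83.6% in AME-d21 and at 60.2, 59.3, 64.2, 62.7 and 62.8% in AME-d0 livers. It was at 85.2, 85.8, 88.6, 86.4 and 88.5% in Con-d21 and at 67.2, 64.3, 76.8, 59.0 and 69.0% in Con-d0 livers. No d21 library overlapped a d0 library (24.3 points, log2 1.87 ± 0.17 (SE), adjusted p = 1.495e-05 in AME, 19.6 points, log2 1.62 ± 0.20 (SE), adjusted p = 0.000135 in control offspring, limma). Its upstream bin at chr17:34806401, with 1 CpG and 5 near copies, averaged 74.5% ± 10.4 in Con-d21 and 40.9% ± 10.1 in Con-d0 livers (SD, n = 5 each, limma adjusted p = 0.00149). Cyp19a1, the aromatase that makes oestrogens, averaged 87.8% ± 3.20 in AME-d21 and 77.2% ± 3.77 in AME-d0 livers, and 89.6% ± 1.51 in Con-d21 and 77.4% ± 5.45 in Con-d0 livers (SD, n = 5 each, limma adjusted p = 0.00307 and 0.000517).

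The 3 vitamin D hydroxylase genes gave 2 calls, both in AME offspring and in opposite directions. Over all loci in AME offspring, 37.1% were called higher and 2.38% lower. Cyp2r1, the hepatic vitamin D hydroxylase (19 CpGs, chr7:114549682-114562972), was at 5.72, 3.96, 2.80, 3.44 and 4.71% in AME-d21 and at 6.48, 4.82, 9.93, 5.85 and 8.60% in AME-d0 livers (fell by 3.01 points, log2 -0.80 ± 0.25 (SE), limma adjusted p = 0.0238). The groups overlapped, and the call was lost without AME-d21 replicate 3 (adjusted p = 0.0591), without AME-d0 replicate 3 (0.0594) and without AME-d0 replicates 1 and 3 (0.122) in limma, and in a quasi-binomial test of the summed reads (adjusted p = 0.0573). Cyp27b1, which makes the active hormone in the kidney, averaged 64.9% ± 5.21 in AME-d21 and 54.8% ± 3.62 in AME-d0 livers (SD, n = 5 each, limma adjusted p = 0.0225), with 24 of its CpGs shared with the neighbours Eef1akmt3 and Mettl1. Cyp24a1, which inactivates the hormone, was below 5% in every library and was not called (limma adjusted p = 0.811 and 0.126). Of its 52 CpGs, 44 were shared with the neighbour Pfdn4.

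The greatest loss at Cyp2r1 was at the 1 CpG of the bin at -246 bp from the gene start (12 to 38 reads). It was at 0, 13.6, 4.54, 0 and 12.5% in Con-d21 and at 50, 26.9, 25, 31.8 and 21.1% in Con-d0 livers, with no overlap (fell by 24.8 points, log2 -2.24 ± 0.46 (SE), limma adjusted p = 0.00185). It was at 10, 5, 8.33, 2.94 and 9.52% in AME-d21 and at 11.8, 14.3, 14.3, 18.8 and 28% in AME-d0 livers, again with no overlap (fell by 10.3 points, limma adjusted p = 0.0156). The promoter of Cyp2r1 was lower at d21 without passing the test (1.60% in AME-d21 and 4.15% in AME-d0, adjusted p = 0.0511, 2.55% in Con-d21 and 4.98% in Con-d0, adjusted p = 0.13, limma).

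The oxysterol and orphan genes gave 1 call in AME and 2 in control offspring among 3 members. All were higher at d21, beside 37.1% and 32.5% of all loci. Cyp46a1, the cholesterol hydroxylase of the brain, with 108 CpGs, averaged 15.5% ± 2.52 in AME-d21 and 11.2% ± 1.01 in AME-d0 livers, and 15.7% ± 0.637 in Con-d21 and 13.1% ± 1.03 in Con-d0 livers (SD, n = 5 each, limma adjusted p = 0.0229 and 0.033). Its gene-body bin at chr12:108346001 averaged 86.4% ± 1.53 in AME-d21 and 62.4% ± 6.74 in AME-d0 livers (SD, n = 5 each, 24.03 points, limma adjusted p = 0.000194). Cyp39a1, which acts on oxysterols, was at 0.099% in AME-d21 and 0.0735% in AME-d0 livers over its promoter, and its gene-body bin at chr17:43678801 averaged 97.2% ± 2.74 in Con-d21 and 73.7% ± 16.2 in Con-d0 livers (SD, n = 5 each, limma adjusted p = 0.00291). Of the 8 CpGs of the Cyp39a1 locus, 7 were shared with the neighbour Slc25a27.

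At the scale of bins, 126 of 238 tested P450 bins were called in AME offspring (119 higher and 7 lower at d21), where 46.0% of all bins were called (42.7% higher, 3.31% lower). In control offspring 128 of 260 were called (122 higher, 6 lower), where 41.3% of all bins were called (37.6% higher, 3.70% lower). After centring on the median of all bins the calls were 31 higher and 22 lower in AME (10.2% and 8.93% of all bins) and 26 higher and 17 lower in control offspring (9.48% and 8.64% of all bins). Without AME-d21 replicate 4 the count in AME offspring was 121 (45 after centring), and without AME-d0 replicates 1 and 3 it was 88 (37 after centring). The shares of all bins above are for all libraries. Those without these libraries are not given here, so these falls are not set against the whole genome. A higher bin was found in 38 of 51 P450 genes in AME (74.5%, beside 73.6% of all genes) and in 43 of 52 in control offspring (82.7%, beside 71.3%). A lower bin was found in 5 P450 genes in each (9.80% beside 18.3% of all genes in AME, 9.62% beside 21.3% in control offspring), with a median of 4 tested bins per P450 gene and 6 per gene over all genes. Bins without a near copy elsewhere in the genome gave 83 higher and 6 lower calls of 176 in AME and 82 higher and 5 lower of 188 in control offspring. Bins with a near copy gave 36 higher and 1 lower of 62 in AME and 40 higher and 1 lower of 72 in control offspring. Near copies were sought only for P450 bins, so no share over all such bins is given.

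In control offspring the bins were also grouped by their place in the gene. The 60 bins within 1 kb of a transcript start had a median level of 2.39% in Con-d21 and 1.57% in Con-d0 livers, and 17 were called higher and 3 lower (28.3% and 5.00%, beside 13.8% and 3.37% of all such bins). Exon bins were called higher in 35 of 58 (60.3%, beside 46.3% of all exon bins), intron bins in 57 of 120 (47.5%, beside 44.6%) and upstream bins in 16 of 25 (64.0%, beside 35.7%). Their median differences were 10.4, 8.32 and 10.8 points. Bins shared by Cyp26c1 and Cyp26a1 were counted under both genes, so the printed coding bin of Cyp26c1 is also among the upstream bins. The P450 bins that were below 10% in AME-d0 livers, a group not used in this contrast, were called higher in control offspring in 26 of 75 (34.7%), beside 14.1% of all bins below 10%. Those between 10 and 50% were called in 12 of 31 (38.7%, beside 40.3%) and those between 50 and 90% in 84 of 153 (54.9%, beside 46.4%). In the same order of levels, the median of Con-d21 minus Con-d0 was 0.65, 9.55 and 10.27 points in P450 bins. It was 0.02, 8.86 and 8.86 points over all bins of those levels.

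Promoters were measured for 17 of the P450 genes, and most were near 0. Of these, 4 were called in AME offspring, all higher at d21 (Cyp2w1, Cyp46a1, Cyp4f39 and Cyp4f40), where 16.2% of all promoters were called (13.4% higher, 2.80% lower). In control offspring 5 were called, all higher (Cyp26a1, Cyp2s1, Cyp2w1, Cyp4f39 and Cyp4f40), where 15.9% of all promoters were called (12.8% higher, 3.17% lower). The Cyp4f39 promoter averaged 23.5% ± 1.36 in AME-d21 and 14.0% ± 1.30 in AME-d0 livers, and 20.5% ± 3.04 in Con-d21 and 11.8% ± 1.55 in Con-d0 livers (SD, n = 5 each), without overlap. The Cyp26a1 promoter averaged 2.99% ± 0.871 in Con-d21 and 1.18% ± 0.516 in Con-d0 livers (SD, n = 5 each, limma adjusted p = 0.0169). The counts were small and moved with single libraries: 1 promoter was called in control offspring without Con-d21 replicate 3, 2 in AME offspring without AME-d21 replicate 3, 3 without AME-d21 replicate 4 and 2 without AME-d0 replicates 1 and 3.

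Single CpGs gave 26 DMCs of 828 tested in AME offspring, all higher at d21, where 4.18% of all tested CpGs were DMCs (3.43% higher, 0.742% lower). In control offspring 35 of 1001 were DMCs (30 higher, 5 lower), where 3.81% of all CpGs were (2.95% higher, 0.856% lower). Outside the Cyp26c1 and Cyp26a1 stretch, Cyp46a1 held 4 DMCs in AME and 2 in control offspring, Cyp4f39 held 3 and 1, and Cyp1a1 held 1 and 2. The CpG of Cyp1b1 at chr17 position 79718813, upstream of the gene, was a DMC in both, at 87.8% in AME-d21 and 68.4% in AME-d0 livers, and at 86.9% in Con-d21 and 67.6% in Con-d0 livers. The counts fell when any library was left out, to between 10 and 17 in AME (10 without AME-d21 replicate 4, and 6 without both AME-d0 replicates 1 and 3) and to between 14 and 20 in control offspring (14 without Con-d0 replicate 4).

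Of 8 measured electron donor and haem supply genes, none was called higher at d21 and 2 were called lower in both comparisons. Lower calls were made at 2.38% of all loci in AME and 3.96% in control offspring, and higher calls at 37.1% and 32.5%. Cyb5a, cytochrome b5, averaged 26.2% ± 1.96 in AME-d21 and 35.2% ± 4.54 in AME-d0 livers, and 26.8% ± 3.94 in Con-d21 and 33.8% ± 3.19 in Con-d0 livers (SD, n = 5 each, limma adjusted p = 0.0149 and 0.0331). Cyb5r3, its reductase, averaged 6.59% ± 0.829 in AME-d21 and 9.98% ± 1.57 in AME-d0 livers, and 7.33% ± 0.553 in Con-d21 and 11.3% ± 1.09 in Con-d0 livers (SD, n = 5 each, limma adjusted p = 0.0108 and 0.000935). Por, the P450 oxidoreductase, was at 27.3% ± 4.76 in AME-d21, 26.9% ± 3.81 in Con-d21, 27.2% ± 4.95 in AME-d0 and 27.3% ± 1.14 in Con-d0 livers (SD, n = 5 each) and was not called.

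Of 15 measured regulators of P450 genes, 5 were higher and 1 lower at d21 in AME and 3 higher and 4 lower in control offspring. Shares over all loci were 37.1% higher and 2.38% lower in AME, and 32.5% and 3.96% in control offspring. Hnf4a, a nuclear receptor that drives hepatocyte genes, averaged 50.8% ± 6.24 in AME-d21 and 65.2% ± 4.82 in AME-d0 livers, and 50.4% ± 1.48 in Con-d21 and 65.5% ± 2.05 in Con-d0 livers (SD, n = 5 each, limma adjusted p = 0.00724 and 8.447e-05). Ahrr, the repressor of the aryl hydrocarbon receptor, averaged 75.1% ± 3.61 in AME-d21 and 61.6% ± 3.05 in AME-d0 livers, and 76.0% ± 2.27 in Con-d21 and 60.9% ± 5.40 in Con-d0 livers (SD, n = 5 each, limma adjusted p = 0.00166 and 0.000719). Ahr itself stayed below 1% in every library.

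Marker genes of the cell types in the liver moved with age as well. Over all promoters, 13.4% were called higher and 2.80% lower in AME, and 12.8% and 3.17% in control offspring. Over all loci these shares were 37.1% and 2.38% in AME, and 32.5% and 3.96% in control offspring. Promoters of 3 of 4 measured hepatocyte genes were lower at d21 in both comparisons, with list means per library of 17.2 to 22.0% in AME-d21, 14.5 to 22.9% in Con-d21, 40.7 to 45.1% in AME-d0 and 44.9 to 46.5% in Con-d0 livers. Erythroid promoters were higher in 3 of 4 (27.9 to 36.7%, 28.3 to 35.5%, 10.2 to 18.1% and 13.4 to 15.9% in the same order of groups). Myeloid and progenitor promoters were higher in 3 of 3 (54.9 to 60.9%, 53.5 to 65.1%, 15.6 to 24.1% and 20.6 to 26.5%), and endothelial promoters in 2 of 3 (38.3 to 42.2%, 38.5 to 41.3%, 9.65 to 15.2% and 13.1 to 22.4%). Over whole loci, the scale of most P450 values above, hepatocyte genes were lower in 5 of 6 in both comparisons (and higher in 1 in AME offspring), with list means of 24.7 to 28.6%, 22.9 to 28.2%, 48.7 to 53.6% and 50.2 to 53.7% in that order. Erythroid loci were higher in 1 of 6 in AME and 3 of 6 in control offspring (39.4 to 44.9%, 40.9 to 43.0%, 35.3 to 40.7% and 38.2 to 40.7%), and Slc4a1, an erythroid anion exchanger, was at 57.7% in AME-d21, 55.8% in Con-d21, 58.2% in AME-d0 and 60.6% in Con-d0 livers. Myeloid and progenitor loci were higher in 5 of 7 and endothelial loci in 4 of 6 in both comparisons. The part of these cell types in the P450 differences was not tested.

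No P450 feature was called between AME and control offspring of the same age. At d21, 0 of 52 loci passed in limma (6 at an unadjusted p under 0.05), where 0% of all loci were called (687 of 16460 at an unadjusted p under 0.05). At d0, 0 of 52 passed (4 unadjusted), with 0% of all loci called and 1416 unadjusted. Without AME-d0 replicates 1 and 3 these were 2 P450 loci and 691 of all loci at an unadjusted p under 0.05, with median differences of -0.31 and -0.0717 points. Differences ran from -10.0 to 10.7 points at d21 and from -8.9 to 6.1 points at d0, with medians of -0.27 and -1.42 points beside 0 and -1.069 points over all loci. Bins gave 0 of 243 at d21 (13 at an unadjusted p under 0.05, beside 9875 of all 196732) and 0 of 251 at d0 (11, beside 11512 of 201212) in limma. Promoters gave 0 of 17 at each age (2 unadjusted at d21, beside 657 of all 12406, and 0 at d0, beside 656). No P450 CpG was a DMC at d21 (0 of 842, 16 at p under 0.05, beside 10329 of all 648895) or at d0 (0 of 964, 17 at p under 0.05, beside 12864 of 728195), where 0.000308% and 0.000687% of all CpGs were. At both ages the quasi-binomial p fell under 0.05 at a smaller share of all CpGs than 0.05. The test was therefore conservative here, and the lack of P450 DMCs says little about the lack of differences. A test in limma per CpG gave 2 at d21 and 0 at d0, where it called 0.0476% and 0.0768% of all CpGs, and a likelihood ratio test without overdispersion gave 2 and 1, where it called 0.107% and 0.193%.

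**Figure D5:**
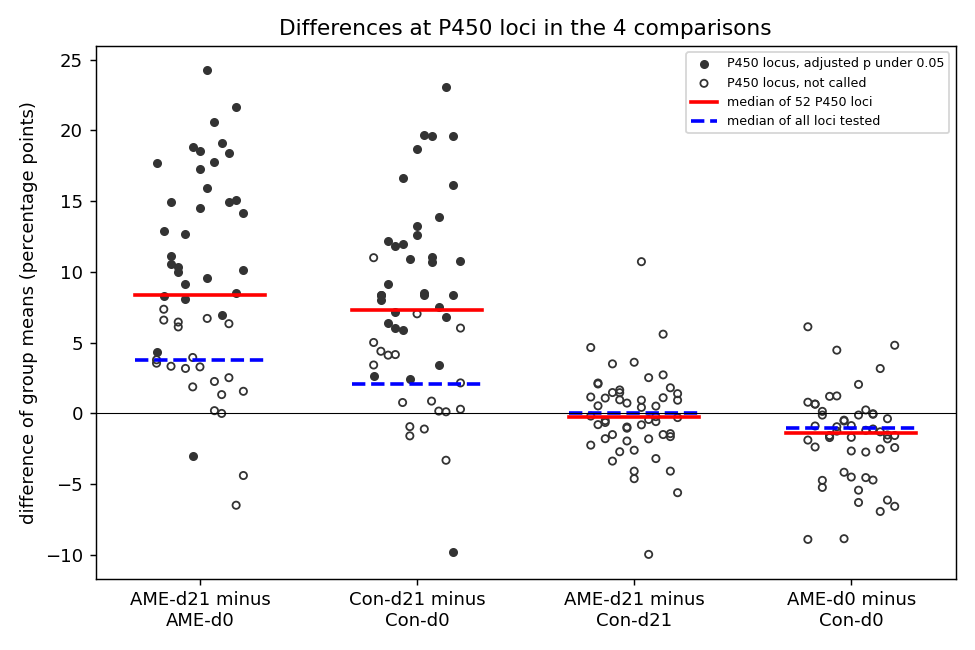
Differences in locus methylation in percentage points (y axis) of the 52 P450 loci in the 4 comparisons (x axis), with the median of the P450 loci and of all loci as lines. The age comparisons spread up to 24.3 points above 0, and the AME comparisons stay between -10.0 and 10.7 points.

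The greatest difference between AME and control offspring at d21 was that of Cyp2c70, read at 3 CpGs with 19 to 88 reads. It was at 89.5, 80.0, 90.7, 89.8 and 92.3% in AME-d21 and at 77.8, 75.0, 81.7, 78.7 and 75.6% in Con-d21 livers (10.7 points, log2 1.07 ± 0.25 (SE), adjusted p = 0.847, limma). At d0 it was at 62.8, 77.8, 70.0, 71.8 and 80.4% in AME-d0 and at 94.7, 65.6, 80.9, 76.6 and 76.5% in Con-d0 livers. The groups overlapped at both ages. Next at d21 came Cyp4f17 at -9.98 points (AME-d21 livers averaged 36.9% ± 6.46, Con-d21 livers 46.9% ± 7.19, SD over 5 livers, limma adjusted p = 1), Cyp2e1 at -5.61 points and Cyp4f39 at 5.59 points. At d0 the greatest were Cyp2b13 at -8.92 points (AME-d0 livers averaged 38.7% ± 6.64, Con-d0 livers 47.6% ± 4.64, SD over 5 livers, limma adjusted p = 0.568), Cyp2c67 at -8.87, Cyp2d22 at -6.94 and Cyp27b1 at -6.58 points.

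At d21 the Cyp2c70 bin at chr19:40181401 differed by 12.7 points, the Cyp1a1 bin at chr9:57697001 by 11.6, the Cyp4f14 bin at chr17:32905401 by 11.5 and the Cyp19a1 bin at chr9:54207601 by 10.2 points (limma adjusted p from 0.975 to 0.982). At d0 the Cyp46a1 bin at chr12:108338001 differed by -15.7 points, the printed Cyp2r1 bin by -13.5, the Cyp2c39 bin at chr19:39524001 by -13.4 and the Cyp26c1 bin at chr19:37684401 by 12.6 points (limma adjusted p from 0.863 to 0.887).

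The age difference was then compared between AME and control offspring by an interaction term over all 20 libraries. No P450 locus passed (0 of 52, 4 at an unadjusted p under 0.05), where 0% of all loci passed and 1067 were unadjusted, and no bin passed (0 of 234, 13 unadjusted, beside 9593 of all 186471, limma). The age difference of Cyp2c70 was 17.02 points greater in AME than in control offspring (log2 1.60 ± 0.48 (SE), adjusted p = 0.682, limma), that of Cyp2e1 was lower by a difference of -10.4 points, and that of Cyp2d22 was 9.66 points greater. The bin of Cyp1a1 at chr9:57697001 differed by 19.3 points (limma adjusted p = 0.963) and that of Cyp4f14 at chr17:32905401 by 19.3 points (limma adjusted p = 0.975), where Con-d21 replicate 5 was at 90% and the other Con-d21 livers were at 11.8 to 26.7%.

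The 5 loci with 3 CpGs had group means of 71.1 to 94.9% in AME-d21, 76.8 to 96.7% in Con-d21, 64.4 to 75.5% in AME-d0 and 68.3 to 78.9% in Con-d0 livers. The 13 candidates with 2 CpGs, among them Cyp3a11, Cyp2c29 and Cyp2d9, were at 56.8 to 96.2%, 61.2 to 96.4%, 60.9 to 78.4% and 57.3 to 81.9%, and 4 had 1 CpG and 26 had none.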

How the data were processed

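RRBS libraries from 20 livers (5 per group, MspI, 51-bp paired-end reads) were made and aligned to mm10 by the authors. Their processing notes name FastQC, Trim Galore, BWA and Bismark, and whether strands were merged or duplicates removed was not given in the sources used here. Per the deposited files, each CpG has counts of methylated and unmethylated reads from 1 read upward, and the authors' percent of methylated reads, which was checked against the counts. The members and the gene lists were chosen with earlier results of these data known. Reads were summed per locus, per 200-bp bin (at least 10 summed reads in every library) and per promoter (1 kb each side of a gene start, at least 3 CpGs). The value log2((methylated + 1)/(unmethylated + 1)) was compared with limma 3.58.1 in R 4.3.3 with Benjamini-Hochberg adjustment over all features, at an adjusted p under 0.05. Centred values had the median of all features subtracted per library. Each comparison used its 10 libraries, and the interaction used all 20. Single CpGs were tested with a quasi-binomial F test. Genes came from GENCODE M21. Named features were the called loci (up to 10 each way), called bins without overlap (1 per gene, up to 8 each way), the 4 greatest loci and bins where nothing was called, and the member with the most CpGs of each list. Tests were checked on simulated data. Alternatives were other read minimums, added reads, bin and promoter sizes, centring, a replicate block, other tests and the omission of libraries.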

Additional observations from a re-analysis of the deposited data

Results flagged for a closer look

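In each of 196 groups of 5 libraries behind the named values, a library was singled out when its gap to the nearest other exceeded Dixon's limit of 0.71 of the range, which chance gives in about 1 of 20 groups. For each 100 autosomal reads AME-d21 replicate 4 had 2.877 on the X chromosome, and the 4 remaining livers of its group had 1.528 to 1.546. Its Y-chromosome reads came to 329.3 per 1000000 reads, where those livers had 1280 to 1513. Among loci, Cyp3a16 was at 54.78% in AME-d0 replicate 5 (others 67.5 to 70.93%), Cyp4f14 at 31.12% in Con-d0 replicate 1 (38.94 to 41.3%) and Cyp2b13 at 65.33% in AME-d21 replicate 2 (52 to 55.26%) and at 55.56% in Con-d0 replicate 1 (44.59 to 47.72%). Cyp2c70 was at 80% in AME-d21 replicate 2 (89.47 to 92.31%) and Cyp2e1 at 85.71% in Con-d21 replicate 1 (72.5 to 76.04%). Among bins, Cyp4f14 at chr17:32905601 was at 25.16% in Con-d0 replicate 1 (33.61 to 36.82%), and its bin at chr17:32905401 was at 90% in Con-d21 replicate 5 (11.76 to 26.67%). The Cyp3a25 bin was at 41.67% in Con-d21 replicate 4 (54.55 to 58.62%), the Cyp26b1 bin at chr6:84572201 at 54.3% in Con-d0 replicate 3 (48.09 to 49.04%) and the Cyp2c39 bin at chr19:39524001 at 45% in AME-d0 replicate 4 (61.36 to 66.67%). The Cyp4b1 bin at chr4:115629201 was at 82.22% in AME-d21 replicate 1 (92.86 to 95.45%). The Cyp46a1 bin at chr12:108346001 was at 79.31% in Con-d21 replicate 1 (84.24 to 86.03%) and at 74.1% in AME-d0 replicate 3 (56.88 to 60.87%). The Cyp2j6 bin was at 1.562% in AME-d21 replicate 1, where the other AME-d21 livers were at 0.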

How the results depend on the processing

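No named feature that was called in the main setting or in the alternative changed direction between them. Sign changes of features called in neither were not counted. In control offspring, 20 loci were called after centring and 20 with 20 reads per CpG (main 34), 43 bins after centring (main 128), and 11 promoters with a 2 kb window and 2 with the replicate block (main 5). In AME offspring these were 53 bins after centring (main 126), and 10 promoters with 2 kb and 2 with the block (main 4). Single CpGs gave 109 calls in limma, 113 with the block and 166 in a likelihood ratio test in control offspring (main 35), and 115, 98 and 156 in AME offspring (main 26), or 15 with 20 reads in all 10 libraries. Between AME-d21 and Con-d21 they gave 2 in limma, 1 with the block and 2 in the likelihood ratio test, and between AME-d0 and Con-d0 they gave 1 in the likelihood ratio test alone (main 0 each). The causes were not tested. Where no share of all features is printed for a setting, a change in count cannot be told from one found across all features. Settings chosen after seeing the data gave, in AME offspring, 18 loci and 37 bins after centring without AME-d0 replicates 1 and 3, 45 bins after centring without AME-d21 replicate 4, and 2 promoters and 6 DMCs without AME-d0 replicates 1 and 3. With 1 library left out, the counts ran from 27 to 33 loci, 112 to 128 bins, 2 to 6 promoters and 10 to 17 DMCs in AME offspring and from 25 to 34 loci, 110 to 129 bins, 1 to 5 promoters and 14 to 20 DMCs in control offspring, and from 0 to 0 loci, bins and promoters between AME and control offspring. Replicate numbers did not pair the libraries (correlations of same-numbered deviations from -0.032 to 0.065), and the replicate block gave 29 loci and 124 bins in AME and 27 and 126 in control offspring. Of 323 values of 45 named age features under other settings, 12 lost their call, and of 450 with a library left out, 10 did. These 45 were called features picked for the greatest differences, so the values do not stand for all called P450 features. Depth limits single-CpG bins, which often held 10 to 40 reads per library.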
